A study of Mus musculus with 8 samples.

Results

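The 10 genes described here carry out the supply of acetyl-CoA and the synthesis and desaturation of fatty acids: Acly, Acss1 and Acss2 (acetyl-CoA supply), Acaca, Fasn and Elovl6 (building and lengthening of the chain), and Scd1, Scd2, Fads1 and Fads2 (desaturation). They were taken by name, as a list of enzymes, from the 55385 genes of the count table, and all 10 were among the 17445 genes with enough counts to be tested. The libraries came from R1 mESCs, a mouse embryonic stem cell line of wild-type genotype, kept in N2B27 medium with 2i and LIF. The cells were exposed for some hours on each of 2 consecutive days to lentivirus carrying a hairpin and then selected for 3 days with puromycin, in every group. The groups were shRNA1 (3 libraries) and shRNA2 (3 libraries), which both target Eftud2, a GTPase of the spliceosome, and nt-shRNA (2 libraries), a hairpin with no target that served as control. shRNA1 pairs with the untranslated 3′ end of the Eftud2 message and shRNA2 with its coding sequence. All libraries are labelled as biological replicates of this 1 line, and the 2 nt-shRNA libraries serve both hairpins, so that the comparisons with nt-shRNA share their controls.

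In the cytosol, fatty acids are built from acetyl-CoA. Acly makes it from citrate exported by mitochondria, and Acss2 makes it from acetate, while Acss1 does the latter inside mitochondria. Acaca converts acetyl-CoA to malonyl-CoA, Fasn joins these units into palmitate, and Elovl6 lengthens the product. The Scd enzymes then place a first double bond in saturated chains, and Fads1 and Fads2 place further ones in polyunsaturated chains. Many of these genes are known targets of the SREBP transcription factors, which respond to sterols. Pluripotent stem cells are known to make fatty acids actively.

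Libraries held 19569525 to 29871048 counts each, and 3 counts correspond to 0.104 to 0.148 CPM (counts scaled to a common library size), far under the level of every gene of the 10. Levels below are CPM normalised by the TMM method of edgeR, and a gene is called where the edgeR quasi-likelihood test, adjusted by Benjamini-Hochberg over the 17445 genes, gave a p under 0.05. Eftud2 stood at 262 and 256 CPM in nt-shRNA, at 232, 229 and 225 with shRNA1 and at 198, 202 and 235 with shRNA2. Its log2 difference was -0.18 (SE 0.07, edgeR adjusted p = 0.0514) with shRNA1, which was not called, and -0.29 (SE 0.07, adjusted p = 0.00122) with shRNA2. By qPCR the authors report a larger knockdown with both hairpins than these counts show, and by western blot a lower level of EFTUD2 protein. The 10 markers of pluripotent cells were all detected, with summed levels of 4638 to 4727 CPM in nt-shRNA, 5088 to 5244 with shRNA1 and 6052 to 6252 with shRNA2. Nanog was higher with both hairpins (log2 0.55 and 0.76) and Pou5f1 lower (-0.35 and -0.29), while Sox2 did not pass the test with either (-0.14 and -0.02). The 20 markers of other cell types summed to between 138 and 156 CPM in every library, most of it from Pecam1 at group means of 93.7, 83.7 and 91.4 CPM; of the 20, 3, 3 and 2 were at 0 in all libraries of nt-shRNA, shRNA1 and shRNA2. Of the 12 tested, Col1a2 was higher with both hairpins (log2 1.27 and 1.66), and with shRNA2 Myh6 was higher (0.62) and Hand1 and Gata6 lower (-1.61 and -0.75), these 4 being named after their values were seen; over all tested genes 55.9% were called with shRNA2. Of the 10 pluripotent markers, 4 were called higher and 2 lower with shRNA1, and 6 higher and 2 lower with shRNA2, beside 13.8% and 17.1% of all tested genes with shRNA1 and 27.2% and 28.7% with shRNA2, so that the sum rose but not every marker and the lower calls lie near the shares over all genes. Whether the change of either set of markers has a part in the results below was not tested, and in bulk samples fewer cells of a type and less RNA per cell cannot be told apart.

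Of the 10 lipogenic genes, 6 were lower with shRNA1 and 7 with shRNA2, and none was higher with either hairpin. All 4 desaturases and 2 of the acetyl-CoA suppliers, Acly and Acss1, fell with both hairpins, and Acss2 fell with shRNA2. None of the 3 chain-building genes, Acaca, Fasn and Elovl6, was called. With shRNA1, 30.9% of all tested genes were called in either direction, 17.1% as lower and 13.8% as higher, against 6 lower of 10 here. With shRNA2 the same shares were 55.9%, 28.7% and 27.2%, against 7 lower of 10. By an unadjusted p under 0.05, 8 were lower with shRNA1 and 7 with shRNA2, again with 0 higher, and DESeq2 called 6 and 7 lower and 0 higher. The median log2 difference of the 10 was -0.51 with shRNA1 and -0.96 with shRNA2, beside -0.01 and 0.00 over all tested genes. Summed over the 10 genes, the level was 2628 and 2713 CPM in nt-shRNA, 1936, 1761 and 1953 with shRNA1, and 1457, 1414 and 1596 with shRNA2. The sums of the 3 groups did not overlap, and this held with Scd2, the most abundant of the 10, left out (1837 and 1853, then 1288 to 1395, then 1120 to 1202).

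**Figure D1:**
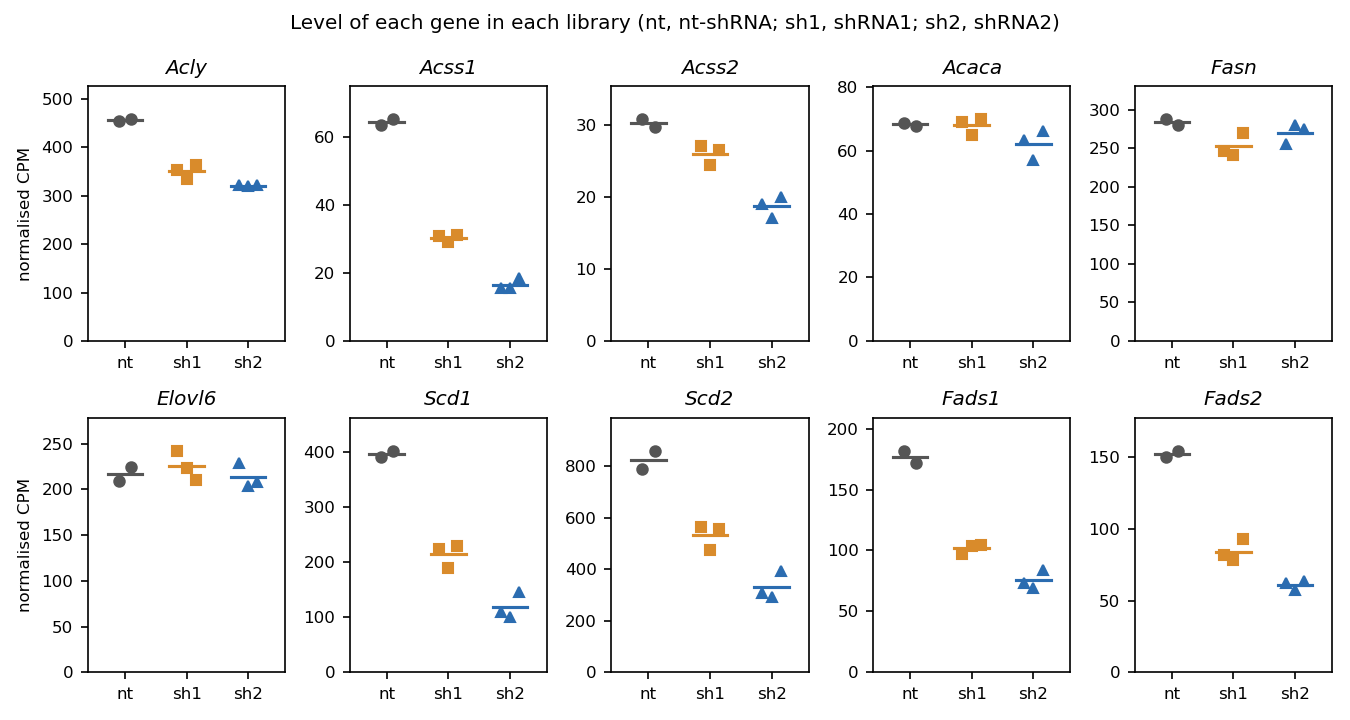
Normalised CPM (vertical axes, each from 0) of each of the 10 genes in each library, with points for libraries and a horizontal line for the group mean. The desaturases and Acss1 step down from nt-shRNA to shRNA1 to shRNA2 (Scd1 391.7 and 402.2 CPM in nt-shRNA and 101.3 to 145.3 with shRNA2), whereas Elovl6 overlaps in all 3 groups.

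The sequences just upstream of Acly and Fasn are shown because the first fell with both hairpins and the second was not called, and because their RefSeq windows hold no annotated exon upstream of the start. Each run gives the 150 bases before the start (RefSeq, GRCm38.p6, minus strand, 5′ to 3′). Acly lies at chr11:100528001-100528150 and Fasn at chr11:120824548-120824697. Capitals mark the GC box (GGGCGG) and the NF-Y box (CCAAT), on either strand.
Acly: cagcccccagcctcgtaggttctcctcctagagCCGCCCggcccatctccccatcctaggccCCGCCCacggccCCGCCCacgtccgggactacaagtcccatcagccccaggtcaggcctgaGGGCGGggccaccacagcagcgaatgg
Fasn: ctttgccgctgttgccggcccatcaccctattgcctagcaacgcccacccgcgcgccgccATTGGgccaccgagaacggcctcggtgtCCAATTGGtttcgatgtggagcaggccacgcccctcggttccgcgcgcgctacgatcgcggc

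Within these 150 bases Acly has 4 GC boxes and no NF-Y box, and Fasn has 3 NF-Y boxes, of which 2 overlap in a single run of capitals, and no GC box. RefSeq windows from 250 bases before to 50 after the start were found for 7 of the 10 genes, all but Scd1, Scd2 and Fads1. The windows of Acaca and Acss1 lie inside the genes as annotated in the count table, not at their first base, and of the 250 upstream bases 171 of Acss1, 243 of Fads2, 129 of Elovl6 and 95 of Acss2 are in annotated exons. In these windows, searched on both strands, a GC box was present in 4 of 7 (Acly, Acss1, Acss2 and Fads2), against 35.7% of 32851 windows of all genes. An NF-Y box was present in 3 of 7 (Acly, after its start, Acss2 and Fasn), against 37.4% of all windows. The sterol regulatory element in the form TCACNCCAC was in 0 of 7 (1.24% of all windows) and the E-box CACGTG in 0 of 7 (7.15%), which says only that these letters are absent from these windows.

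Acly, ATP citrate lyase (chr11:100476353-100528000), was measured at 454 and 458 CPM in nt-shRNA, at 353, 335 and 363 with shRNA1 and at 322, 319 and 322 with shRNA2. Every library with an Eftud2 hairpin lay below both controls. Acly fell by 23.2% with shRNA1 (log2 -0.38, SE 0.06, edgeR adjusted p = 6.5e-05) and by 29.7% with shRNA2 (log2 -0.51, SE 0.06, adjusted p = 5.0e-07). It was the gene with the narrowest spread with shRNA2, at 321 ± 1.35 CPM (SD, n = 3).

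Acss1, the mitochondrial acetyl-CoA synthetase (chr2:150618105-150668500), stood at 63.4 and 65.2 CPM in nt-shRNA, at 30.9, 29.0 and 31.1 with shRNA1 and at 15.7, 15.4 and 18.4 with shRNA2. The 3 groups were clearly apart. This was the largest fall among the 10 genes in both comparisons, 2.12-fold with shRNA1 (log2 -1.08, SE 0.08, edgeR adjusted p = 3.0e-08) and 3.90-fold with shRNA2 (log2 -1.96, SE 0.08, adjusted p = 1.1e-11). Of its exon bases 2.74% are shared with an antisense gene, E130215H24Rik, which averaged 0.0387 CPM over the libraries.

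Acss2, the synthetase of cytosol and nucleus (chr2:155517948-155585724), was at 30.7 and 29.7 CPM in nt-shRNA, at 27.0, 24.4 and 26.4 with shRNA1 and at 18.93, 17.05 and 19.97 with shRNA2. Its libraries with shRNA1 all lay below the controls, but the difference did not pass (log2 -0.22, 95% interval -0.40 to -0.03, edgeR adjusted p = 0.0664), and without shRNA2 replicate 2, which enters the fit through the shared spread, it did (adjusted p = 0.0426). The difference with shRNA1 also passed in edgeR with the replicate number as a block (-0.252, adjusted p = 0.0284). After a correction for GC content it passed without the block (-0.255, edgeR adjusted p = 0.0217) and with it (-0.299, edgeR adjusted p = 0.00523). With shRNA2 Acss2 fell by 38.3% (log2 -0.70, SE 0.09, adjusted p = 2.4e-06). Per kb of exon, Acss1 made up 83.5% and 84.4% of the summed level of both synthetases in nt-shRNA, 73.8 to 74.5% with shRNA1 and 67.1 to 69.4% with shRNA2. The mitochondrial form thus took a smaller share in each library with an Eftud2 hairpin than in either control. Gss, on the other strand, covers 3.89% of the exon bases of Acss2 and averaged 65.9 CPM.

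Acaca, acetyl-CoA carboxylase 1 (chr11:84129672-84401651), which makes malonyl-CoA, stood at 68.8 and 67.8 CPM in nt-shRNA, at 69.1, 65.0 and 69.9 with shRNA1 and at 63.3, 57.1 and 66.1 with shRNA2. The shRNA1 libraries spanned the controls, and the shRNA2 libraries lay under them by little. The log2 differences were -0.01 (95% interval -0.16 to 0.14, edgeR adjusted p = 0.963) and -0.14 (interval -0.29 to 0.01, adjusted p = 0.113). Leaving out 1 library at a time, the latter ranged from -0.18, without shRNA2 replicate 3, to -0.07, without shRNA2 replicate 2. It passed without replicate 3 (edgeR adjusted p = 0.0477) and not without replicate 2. The difference with shRNA2 also passed in edgeR with the replicate number as a block (-0.171, adjusted p = 0.0348). After a correction for GC content it passed without the block (-0.163, edgeR adjusted p = 0.0426) and with it (-0.203, edgeR adjusted p = 0.00636).

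Fasn, fatty acid synthase (chr11:120805846-120824547), was at 287 and 280 CPM in nt-shRNA, at 247, 241 and 269 with shRNA1 and at 255, 280 and 275 with shRNA2. With shRNA2, replicate 2 (280.2 CPM) was almost level with the lower control (280.3 CPM). The log2 difference with shRNA1 was -0.17 (95% interval -0.30 to -0.04), with an edgeR adjusted p of 0.0501, just outside the threshold. It passed without shRNA1 replicate 3 (-0.22, edgeR adjusted p = 0.00964) and without shRNA2 replicate 2 (-0.17, edgeR adjusted p = 0.0414). It also passed with the replicate number as a block (-0.202, edgeR adjusted p = 0.0205) and with no filter on counts (-0.175, edgeR adjusted p = 0.0413). After a correction for GC content it was -0.05 and did not pass. With shRNA2 it was -0.07 (interval -0.21 to 0.06, adjusted p = 0.351), and after a correction for GC content it turned to 0.099, which did not pass either. The mean Fasn level was lower with shRNA1 than with shRNA2, the reverse of the order of the desaturases, but this difference between hairpins did not pass (log2 0.10 for shRNA2 against shRNA1, adjusted p = 0.200) except after a correction for GC content (0.15, adjusted p = 0.0128).

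Elovl6, which lengthens palmitate (chr3:129532355-129638495), stood at 209 and 224 CPM in nt-shRNA, at 242, 223 and 210 with shRNA1 and at 229, 204 and 208 with shRNA2. All 3 groups overlapped. The log2 differences were 0.05 (95% interval -0.09 to 0.20, edgeR adjusted p = 0.597) and -0.02 (interval -0.17 to 0.12, adjusted p = 0.811). Of the 3 chain-building genes, 0 were called with either hairpin, beside 30.9% of all tested genes with shRNA1 and 55.9% with shRNA2. Whether 3 genes differ from these shares was not tested. By an unadjusted p under 0.05 in the edgeR fit, only Fasn of the 3 was lower, with shRNA1, and DESeq2 called 0 of the 3 with either hairpin.

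Scd1, stearoyl-CoA desaturase 1 (chr19:44394455-44407879), was at 391.7 and 402.2 CPM in nt-shRNA, at 224, 189 and 229 with shRNA1 and at 110, 101 and 145 with shRNA2. The groups did not overlap, and the highest library with shRNA2 was under the lowest with shRNA1. Scd1 fell 1.85-fold with shRNA1 (log2 -0.89, SE 0.10, edgeR adjusted p = 4.1e-06) and 3.34-fold with shRNA2 (log2 -1.74, SE 0.10, adjusted p = 2.2e-10).

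Scd2, the paralog that acts mainly in brain and in developing tissues (chr19:44293674-44306864), was at 790 and 860 CPM in nt-shRNA, at 564, 473 and 558 with shRNA1 and at 308, 294 and 393 with shRNA2. The order of the groups was that of Scd1. The fall was 1.55-fold with shRNA1 (log2 -0.63, SE 0.10, edgeR adjusted p = 6.9e-05) and 2.49-fold with shRNA2 (log2 -1.31, SE 0.10, adjusted p = 2.2e-09). Per kb, Scd1 made up 35.6% and 34.3% of the level of both genes in nt-shRNA, 30.8 to 31.4% with shRNA1 and 27.8 to 29.2% with shRNA2, so its share was smaller in each library with an Eftud2 hairpin. Another gene of the cluster, Scd3 (chr19:44203269-44244016), moved the other way, from 6.67 and 5.75 CPM in nt-shRNA to 20.2, 21.2 and 19.2 with shRNA1 and 17.3, 17.7 and 19.7 with shRNA2. It was higher with both (log2 1.70 and 1.55, edgeR adjusted p = 1.4e-08 and 3.0e-09), at a level well under that of Scd1 and Scd2. The Scd genes are close in sequence, and since fragments aligned to several places were not counted, reads from stretches that they share may be missing from each.

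Fads1, the delta-5 desaturase (chr19:10182888-10196877), stood at 182 and 172 CPM in nt-shRNA, at 97.5, 103 and 104 with shRNA1 and at 73.7, 69.1 and 83.8 with shRNA2. It fell 1.74-fold with shRNA1 (log2 -0.80, SE 0.07, edgeR adjusted p = 2.2e-07) and 2.34-fold with shRNA2 (log2 -1.23, SE 0.07, adjusted p = 1.5e-10). Fads2, the delta-6 desaturase on the opposite strand of the same locus (chr19:10062765-10101746), ran with it. Fads2 was at 150 and 154 CPM in nt-shRNA, at 81.7, 78.2 and 92.6 with shRNA1 and at 62.1, 57.1 and 63.7 with shRNA2. Its fall was 1.81-fold (log2 -0.85, SE 0.07, edgeR adjusted p = 1.1e-07) and 2.498-fold (log2 -1.32, SE 0.07, adjusted p = 8.7e-11). For both genes the 3 groups were apart. Per kb, Fads1 made up 43.2 to 47.5% of the level of the pair over all 8 libraries, and in this share the groups overlapped, unlike in that of Scd1 and Scd2.

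**Figure D2:**
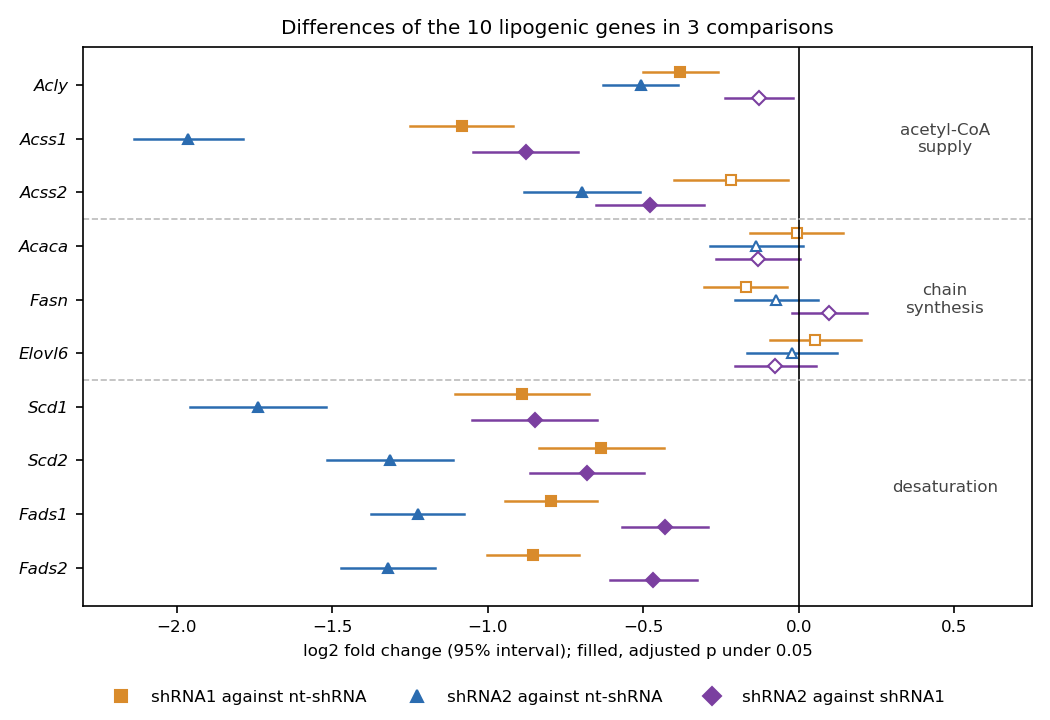
Log2 fold change (horizontal axis) of each gene with its 95% interval for shRNA1 against nt-shRNA, shRNA2 against nt-shRNA and shRNA2 against shRNA1; filled symbols passed the edgeR test at an adjusted p under 0.05. All 4 desaturases and Acss1 are filled in each comparison, and Acaca, Fasn and Elovl6 lie near 0 with open symbols in each.

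The direct comparison of the hairpins, which does not use the nt-shRNA libraries for its difference, asked whether the genes stood lower with shRNA2 than with shRNA1. Of the 10, 6 were lower with shRNA2 and 0 were higher, beside 35.6% of all tested genes called in either direction, 18.7% as lower and 16.9% as higher. An unadjusted p under 0.05 and DESeq2 each gave 7 lower and 0 higher. The 6 were Acss1 (log2 -0.88, SE 0.08, edgeR adjusted p = 8.2e-07), Scd1 (-0.85, SE 0.10, 4.5e-06), Scd2 (-0.68, SE 0.09, 1.6e-05), Acss2 (-0.48, SE 0.08, 2.4e-04), Fads2 (-0.47, SE 0.07, 4.4e-05) and Fads1 (-0.43, SE 0.07, 8.4e-05). In each of these the highest shRNA2 library was below the lowest shRNA1 library. Acly also did not overlap (319 to 322 against 335 to 363 CPM), but its difference of -0.13 did not pass (95% interval -0.24 to -0.02, adjusted p = 0.0647). The chain-building genes again gave 0 calls, also by an unadjusted p under 0.05 and by DESeq2, with Acaca at -0.13 (interval -0.27 to 0.01) and Elovl6 at -0.08 (interval -0.21 to 0.06). Within the shRNA2 group, replicate 3 had the highest level of all 4 desaturases, both acetyl-CoA synthetases and Acaca. It also had the highest Eftud2 of that group, 235 against 198 and 202 CPM. Within the shRNA1 group, replicate 3 had the lowest Eftud2, 225 against 232 and 229 CPM. That library had the highest Scd1, Fads1, Fads2, Acss1 and Acaca of its group, while Scd2 and Acss2 were highest in replicate 1. The part of the Eftud2 level in these values was not tested. Without shRNA2 replicate 3, Scd1 with shRNA2 stood at -1.91 against nt-shRNA, and without shRNA2 replicate 2 at -1.63.

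Levels can be compared between genes only per kb of exon. In nt-shRNA the order of levels per kb was Scd2 (151 CPM per kb), Acly (86.4), Scd1 (81.1), Fads2 (46.2), Fads1 (36.7), Elovl6 (33.7), Fasn (25.9), Acss1 (15.6), Acaca (4.001) and Acss2 (2.97), and the 2 control libraries of each gene did not overlap those of the next. With shRNA2 the order per kb had changed to Acly (60.8) and Scd2 (60.7), whose libraries overlapped, then Elovl6 (33.2), Fasn (24.7), Scd1 (24.3), Fads2 (18.5) and Fads1 (15.7), with Acss1 (3.997), Acaca (3.64) and Acss2 (1.84) still at the end. The libraries of Fasn and Scd1, of Fads2 and Fads1, and of Acss1 and Acaca overlapped there too, so these neighbours were not apart. Elovl6 had moved up past Scd1, Fads1 and Fads2, and Fasn past Fads1 and Fads2, without a called change of their own. Scd1 per kb was 3.05 and 3.21 times Fasn per kb in nt-shRNA, 1.76 to 2.04 times with shRNA1 and 0.809 to 1.18 times with shRNA2. The summed level per kb of the 4 desaturases was 4.903 and 5.0 times that of Acaca, Fasn and Elovl6 in nt-shRNA, 2.82 to 3.24 times with shRNA1 and 1.75 to 2.26 times with shRNA2. Both ratios are within a library and do not depend on how libraries were scaled, and in neither did the 3 groups overlap.

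**Figure D3:**
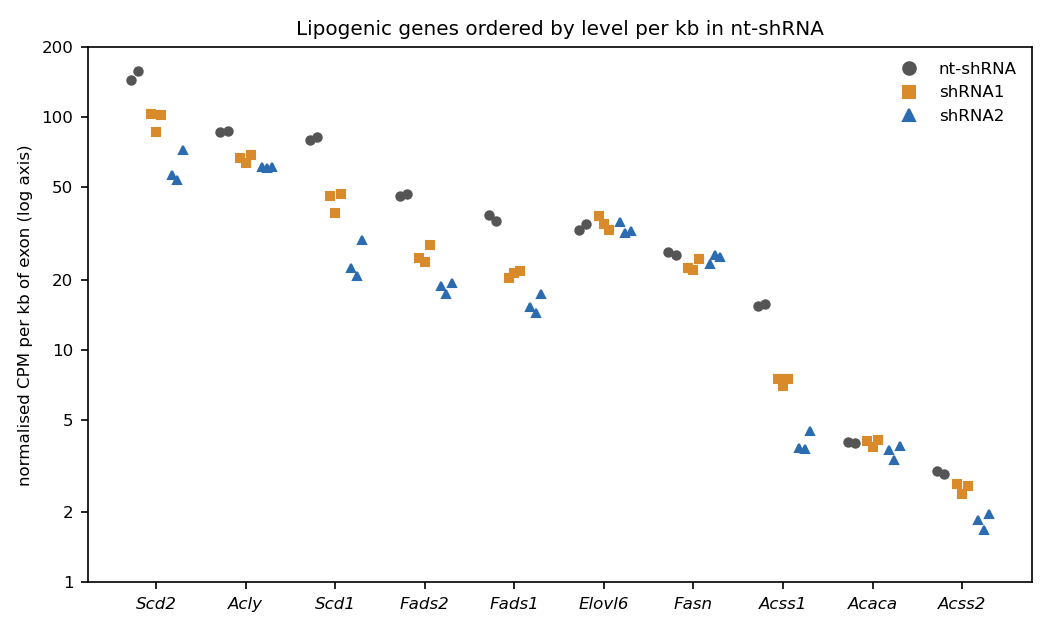
Normalised CPM per kb of exon (log axis) of the 10 genes in each of the 8 libraries, ordered by level in nt-shRNA. Scd1 starts at 81.1 CPM per kb, above Elovl6 (33.7) and Fasn (25.9), and ends with shRNA2 at 24.3, under Elovl6 (33.2) and level with Fasn (24.7).

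The regulators of these enzymes were given as a list of 30 genes, 29 of them tested. With shRNA1 11 were lower and 2 higher, with shRNA2 10 were lower and 7 higher, and the medians of the log2 differences were -0.04 and -0.01. Over all tested genes the shares were 17.1% lower and 13.8% higher with shRNA1 and 28.7% and 27.2% with shRNA2, and the counts with shRNA2 lie near these. Srebf2, the SREBP with a larger part in sterol synthesis, stood at 611 and 569 CPM in nt-shRNA, at 303, 291 and 367 with shRNA1 and at 241, 243 and 265 with shRNA2 (log2 -0.88 and -1.24, edgeR adjusted p = 2.8e-07 and 5.1e-10). Srebf1, with a larger part in fatty acid synthesis, went from 150 and 160 CPM to 106, 99.0 and 123 and to 82.9, 88.0 and 95.4 (log2 -0.50 and -0.80, adjusted p = 1.0e-04 and 9.4e-08). Both were lower in every library with an Eftud2 hairpin than in either control. Insig1, which holds SREBPs in the endoplasmic reticulum and is itself their target, fell with both hairpins (log2 -0.91 and -1.49), and its relative Insig2 was not called (0.12 and 0.17). Scap, the escort of SREBPs, was higher with shRNA2 (0.57) and was at 0.21 with shRNA1 (adjusted p = 0.0861). Fbxw7, part of a ubiquitin ligase that marks SREBPs for decay, was chosen after its values were seen and rose from 26.1 and 27.4 CPM to 45.2, 45.6 and 42.7 and to 76.4, 85.3 and 61.9 (log2 0.73 and 1.48, adjusted p = 3.2e-05 and 1.3e-09).

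Among other regulators, Mlxipl, the carbohydrate-responsive factor ChREBP, fell with both hairpins (log2 -0.32 and -0.69). Thrsp and Mid1ip1, small related proteins tied to lipogenesis, of which Mid1ip1 is known to promote the polymerisation of acetyl-CoA carboxylase, fell as well (-0.62 and -1.44 for Thrsp, -0.60 and -1.19 for Mid1ip1). Thrsp was a low gene, at 5.32 and 5.47 CPM in nt-shRNA and 1.58 to 2.39 with shRNA2. The liver X receptors, which induce Srebf1 on binding oxysterols, were not among the lower genes. Nr1h2 was at -0.01 with shRNA2 and 0.00 with shRNA1, neither called, and after a correction for GC content it was called as higher with shRNA2 (0.18, adjusted p = 0.00776). Nr1h3 was near the floor, at 0.600 and 0.523 CPM in nt-shRNA, and was higher with shRNA2 (log2 1.118, SE 0.30, adjusted p = 0.00351).

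Of the 16 tested genes of a list for the carriers and enzymes around acetyl-CoA and NADPH, 6 were lower and 2 higher with shRNA1 (17.1% and 13.8% of all tested genes) and 8 lower and 3 higher with shRNA2 (28.7% and 27.2% of all), so that the higher calls were no more frequent than over all genes. Slc25a1, the mitochondrial citrate carrier that delivers the substrate of Acly, stood at 156 and 160 CPM in nt-shRNA, at 78.1, 68.9 and 89.3 with shRNA1 and at 45.0, 38.3 and 54.0 with shRNA2. Its log2 differences were -0.997 and -1.783 (edgeR adjusted p = 9.7e-07 and 1.7e-10), beside -0.38 and -0.51 for Acly. Slc25a10, the dicarboxylate carrier, was higher with both (0.40 and 0.91). Me1, the cytosolic malic enzyme that yields NADPH, was chosen after its values were seen and fell with both (-0.60 and -1.03).

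A list of elongation and desaturation partners had 23 tested genes, 8 lower and 3 higher with shRNA1, where the higher calls lie near the 13.8% of all genes and 17.1% of all were lower, and 11 lower and 4 higher with shRNA2 (28.7% and 27.2% of all). Tecr, the reductase that completes each elongation round, fell from 330 and 323 CPM to 206, 197 and 232 and to 154, 140 and 170 (log2 -0.62 and -1.08, edgeR adjusted p = 6.3e-06 and 1.5e-09), although the elongase Elovl6 was not called. Cyb5r3, which feeds electrons through cytochrome b5 to the desaturases, was chosen after its values were seen and fell with both (-0.44 and -0.73). Acacb, the carboxylase of the mitochondrial surface, was picked likewise and behaved as Acaca did, at -0.01 and -0.13, not called. The higher gene with the smallest adjusted p in this list was Scd3, described above.

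In the 9 tested genes of mitochondrial fatty acid synthesis, a separate pathway that makes the precursor of lipoic acid, 0 were called with shRNA1. Over all tested genes 30.9% were called with shRNA1, 17.1% as lower and 13.8% as higher. By an unadjusted p under 0.05 in the edgeR fit, 2 of the 9 were lower and 0 higher with shRNA1, and DESeq2 called 0. With shRNA2 2 were lower and 1 higher, against 28.7% and 27.2% of all tested genes. Cbr4, a subunit of the ketoacyl reductase, was at -0.20 with shRNA1 and fell with shRNA2 (-0.81), and Mecr, the enoyl reductase, was at 0.20 and rose with shRNA2 (0.53).

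Downstream of synthesis, 23 tested genes of fatty acid activation and uptake counted 7 lower and 2 higher with shRNA1 (17.1% and 13.8% of all tested genes) and 13 lower and 2 higher with shRNA2 (28.7% and 27.2% of all), with medians of -0.14 and -0.46. Acot13, a thioesterase, fell (log2 -0.55 and -1.24), and Acsl6, an acyl-CoA synthetase, rose (0.70 and 1.07). For glycerolipid synthesis and lipid droplets, 29 genes counted 6 lower and 4 higher with shRNA1, both near the shares over all tested genes (17.1% and 13.8%), and 11 lower and 5 higher with shRNA2 (28.7% and 27.2% of all). Plin3, a lipid droplet coat protein, fell from 215 and 213 CPM to 132, 140 and 161 and to 80.8, 72.8 and 94.2. Mgll, monoacylglycerol lipase, rose from 2.40 and 2.68 CPM to 8.71, 11.3 and 8.59 and to 9.53, 10.7 and 10.5 (log2 1.89 and 2.01, edgeR adjusted p = 1.6e-07 and 8.3e-09). For fatty acid oxidation, 28 genes counted 8 lower and 2 higher, then 12 lower and 5 higher, against the same shares over all genes. Acads, the short-chain dehydrogenase, fell (-0.41 and -0.72) and Hadhb, a subunit of the trifunctional protein, rose (0.47 and 0.67).

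**Figure D4:**
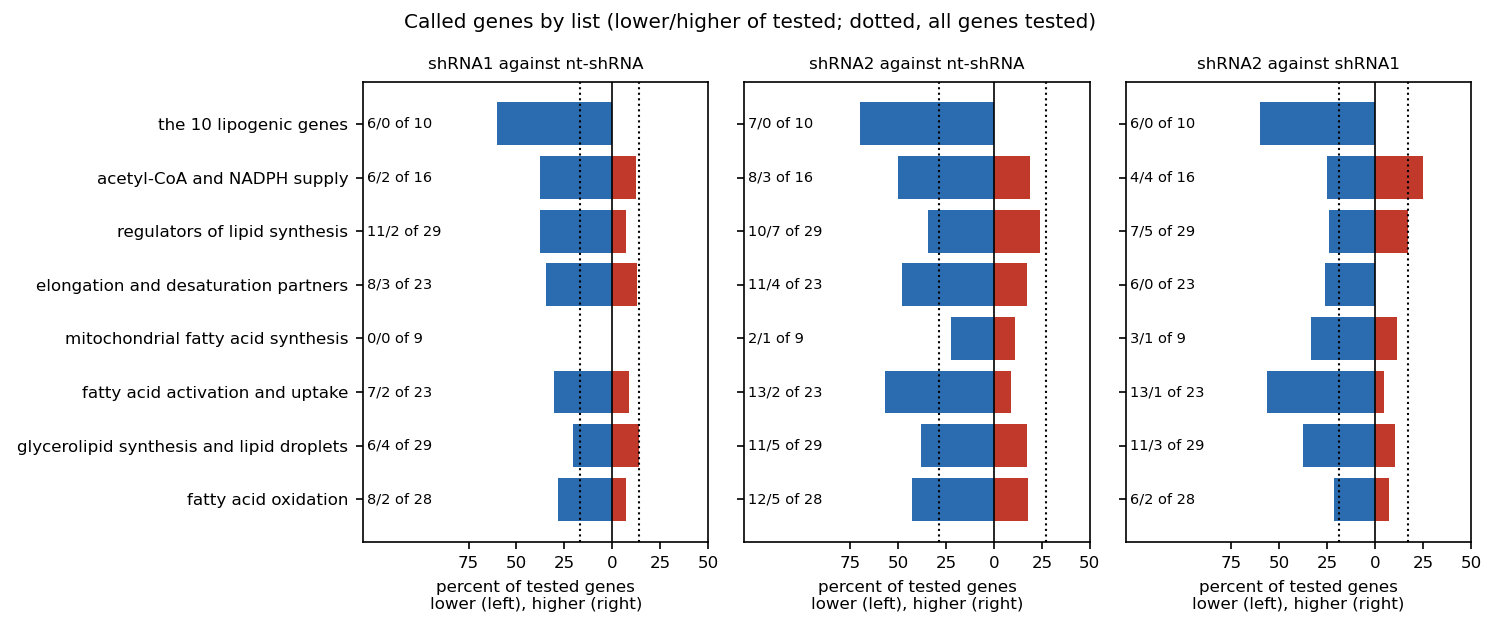
Percent of the tested genes of each list called as lower (bars to the left) or higher (bars to the right) in the 3 comparisons, with the counts printed and dotted lines for all genes tested. The 10 lipogenic genes have 6, 7 and 6 lower and 0 higher; of the other lists, activation and uptake comes nearest with shRNA2, with 13 lower of 23.

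Over the 8 libraries, the gene whose profile was most like each of the 6 enzymes called with both hairpins was found, among the tested genes other than the 10 enzymes, as the smallest root mean square difference of log2 levels, each centred on its own mean. For Scd1 it was Slc25a1 (0.0718), with Pfkp (0.0750) and Ldhb (0.0766), both of glycolysis, almost as near. For Acly it was Laptm4b (0.0247), for Acss1 Pfkp (0.0879), for Scd2 Clmn (0.0514), for Fads1 Cblc (0.0648) and for Fads2 Micall2 (0.0301).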

How the data were processed

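Poly(A)-selected RNA was sequenced in paired ends. The authors aligned the reads end to end to GRCm38 (mm10) with STAR and, per the file headers, counted fragments on exons of GENCODE M24 with featureCounts 1.6.2. The deposited values are raw counts per gene for 55385 genes, and the deposited length of merged exons was used for levels per kb. The command sets no strand option and none for ambiguous fragments (several alignments, or exons of several genes), which are then not counted, so antisense, overlapping and near-identical genes are uncertain. Samples were mapped by column names. Symbols came from GENCODE M21 for 55144 genes.

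Counts of all 8 libraries were fitted in R 4.3.3 with edgeR 4.0.16 (TMM, filterByExpr with a minimum count of 10, glmQLFit and glmQLFTest, a coefficient per group) and adjusted by Benjamini-Hochberg over 17445 genes, with a threshold of 0.05. The 95% intervals use the test's own degrees of freedom. The main alternatives were DESeq2 1.42.0, other scaling and filters, GC content offsets, a replicate block and leaving out each library. Libraries of a group differed beyond sampling noise (chi-square per gene of 3.24 to 12.9). On simulated data with 200 genes changed 2-fold, in a test of shRNA2 against nt-shRNA with 16563 genes tested, the code called 199 of them and 9 unchanged ones. In the real data far more genes were called and many differences were under 2-fold, a setting that this simulation does not cover. Library floors (3 counts) cover counting error only. The enzymes and gene lists were chosen with earlier results of these data known. By rule, the text names the 10 enzymes, Eftud2, 10 regulators, in each other list the lower and the higher gene with the smallest adjusted p with shRNA2, and 4 markers. Fbxw7, Me1, Cyb5r3, Acacb, Stk11 and 4 further markers were added after their values were seen. Figures were drawn with matplotlib.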

Additional observations from a re-analysis of the deposited data

How the results depend on the processing

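Over 17 alternatives for each of the 10 enzymes, no called enzyme lost its call or changed sign in any of the 3 comparisons. Enzymes that had not passed did so in 8, 4 and 7 of 170 combinations for shRNA1, shRNA2 and shRNA2 against shRNA1: Acss2 and Fasn with shRNA1, Acaca with shRNA2, and Acly, Acaca and Fasn between the hairpins. Fasn with shRNA2 ranged from -0.10 to 0.10 and passed in none. The count of called enzymes ran from 6 to 8, 7 to 8 and 6 to 9. Leaving out 1 library at a time, the genes called with shRNA1 numbered 2948 to 5903 against 5388, the lowest without nt-shRNA replicate 1; the cause was not tested. Samples with the same replicate number did not deviate together (correlations -0.0259 to 0.0742). These correlations cannot exclude a pairing, since the 2 controls deviate from their mean by equal and opposite amounts. The authors compared qPCR replicates pairwise, but the main fit here did not read the numbers as pairs. With the replicate block, 6018, 10034 and 6518 genes were called, against 5388, 9758 and 6204. The enzymes called were 8, 8 and 6 with the block, against 6, 7 and 6. The block added Acss2 and Fasn with shRNA1 and Acaca with shRNA2. With GC content offsets, 2 regulators turned from just under 0 to higher with shRNA2: Nr1h2 (0.18, and 0.175 with the block) and Stk11 (0.12, and 0.13). Without TMM factors the median of all genes moved to 0.11 and 0.09 with shRNA1 and shRNA2, which ended no call of an enzyme. Only 2 controls, and exon lengths that merge all transcripts, limit the levels per kb.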
